A study of Mus musculus with 6 samples.

Results

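The collagen genes were taken as every symbol in the count tables made of Col, a number, a and a number, which gave 44 of the 55291 symbols listed. By class they were 11 fibrillar genes, 6 type IV genes, 6 type VI genes and 21 others. RNA was sequenced from 6 libraries of cells sorted from the mammary glands of 6-week-old mice with the genotype Adgra3-lz/+. In these mice 1 allele of Adgra3, the gene of the adhesion receptor Gpr125, carries a β-galactosidase fusion, so that the enzyme's fluorogenic substrate FDG marks cells in which that locus is active. There were 2 libraries for each of 3 groups: Gpr125-negative cells (FDG-), TEB-distal Gpr125+ cells (FDG+, from the end of the gland that holds the terminal end buds) and nipple-proximal Gpr125+ cells (FDG+). All groups carried the reporter allele, received no treatment, were depleted of cells positive for CD31, CD45 or Ter119 and were gated on high CD49f. The study's flow cytometry panel also lists an antibody to CD140a (Pdgfra), a fibroblast marker, which the series text does not name for this sort. The series text gives 5 mice pooled per sample. The study's methods give a smaller number for FDG preparations. The labels give no region for the Gpr125-negative libraries, which were the reference for both Gpr125+ groups, and do not say whether replicates came from separate mice, so that p-values measure the spread between these samples, which may be technical.

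Collagens are secreted proteins in which alpha chains wind around each other into a rope-like trimer. Fibrillar collagens build the tensile fibres of the stroma, type IV collagens form the sheet-like network of the basement membrane on which mammary basal cells rest, and type VI collagens form beaded filaments next to that membrane. Other members decorate fibrils, span the plasma membrane or anchor the basement membrane to the stroma.

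Total counts were between 20134890 and 37296640 per library, and the second Gpr125-negative library had counts in the fewest genes, 17401 against 20384 to 21963 in the others. Adgra3 had 1658 and 550 (labelled Gpr125-negative), 385 and 142 (TEB-distal) and 391 and 262 (nipple-proximal) counts, so that its level goes against the labels, and every direction below is between libraries as labelled. Itga6, which encodes CD49f, was present in all 6, with 2160 to 4907 counts. All 9 basal/myoepithelial markers were present in every library, with a summed level of 3379 and 3501 (Gpr125-negative), 3804 and 21922 (TEB-distal) and 9278 and 14600 (nipple-proximal) CPM. CPM are counts scaled to library size with edgeR's TMM factors. The 9 endothelial markers were all detected in the Gpr125-negative libraries, at 879 and 752 CPM in sum, against 19.1 and 15 (TEB-distal) and 136 and 22.5 (nipple-proximal). The 10 fibroblast markers summed to 521 and 377, 519 and 1114, and 607 and 502 CPM in the same order. In bulk samples, fewer cells of a type and less RNA per cell cannot be told apart.

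The start regions of 6 genes are shown because Col4a1 with Col4a2 and Col4a5 with Col4a6 lie head to head and were also within a few fold of each other in level, while Col6a1 and Col25a1 had large differences in opposite directions. RefSeq windows of 300 bases (250 before the start site and 50 after it, GRCm38.p6) were matched by symbol for 35 of the 44 genes, with 38 windows in all. Each window is printed in the direction of its own gene, and capitals mark the motif CCAAT, the motif GGGCGG and the TATA motif TATAAA on either strand. The reverse complement of CCAAT can share letters with GGGCGG. The start sites of Col4a1 (chr8:11312777-11313076, minus strand) and Col4a2 (chr8:11312555-11312854, plus strand) are 21 bases apart, and their windows share 78 bases. Those of Col4a5 (chrX:141475169-141475468, plus strand) and Col4a6 (chrX:141474027-141474326, minus strand) are 1343 bases apart. The windows of Col6a1 (chr10:76725995-76726294, minus strand) and Col25a1 (chr3:130180595-130180894, plus strand) follow.
Col4a1: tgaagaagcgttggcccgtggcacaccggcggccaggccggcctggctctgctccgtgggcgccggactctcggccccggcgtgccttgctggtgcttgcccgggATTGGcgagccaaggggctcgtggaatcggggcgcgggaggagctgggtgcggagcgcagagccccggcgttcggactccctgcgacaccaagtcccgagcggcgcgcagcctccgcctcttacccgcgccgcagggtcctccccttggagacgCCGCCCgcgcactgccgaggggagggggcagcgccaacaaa
Col4a2: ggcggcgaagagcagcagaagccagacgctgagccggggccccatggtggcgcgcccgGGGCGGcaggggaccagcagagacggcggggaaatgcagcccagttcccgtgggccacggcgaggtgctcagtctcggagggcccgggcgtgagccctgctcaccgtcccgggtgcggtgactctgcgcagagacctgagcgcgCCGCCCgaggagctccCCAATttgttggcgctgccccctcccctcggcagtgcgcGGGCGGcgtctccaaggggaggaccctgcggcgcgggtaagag
Col4a5: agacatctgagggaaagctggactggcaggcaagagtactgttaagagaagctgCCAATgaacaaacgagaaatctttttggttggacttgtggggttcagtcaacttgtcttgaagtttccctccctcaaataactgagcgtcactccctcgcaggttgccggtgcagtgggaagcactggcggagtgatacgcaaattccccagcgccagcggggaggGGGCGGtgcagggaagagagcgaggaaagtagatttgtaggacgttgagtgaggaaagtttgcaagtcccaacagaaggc
Col4a6: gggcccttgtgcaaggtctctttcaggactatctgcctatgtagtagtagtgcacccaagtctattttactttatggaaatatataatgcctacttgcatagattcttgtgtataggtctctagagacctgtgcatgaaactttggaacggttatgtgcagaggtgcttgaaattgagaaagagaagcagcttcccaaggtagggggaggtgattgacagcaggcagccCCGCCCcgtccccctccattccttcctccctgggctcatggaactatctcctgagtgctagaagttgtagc
Col6a1: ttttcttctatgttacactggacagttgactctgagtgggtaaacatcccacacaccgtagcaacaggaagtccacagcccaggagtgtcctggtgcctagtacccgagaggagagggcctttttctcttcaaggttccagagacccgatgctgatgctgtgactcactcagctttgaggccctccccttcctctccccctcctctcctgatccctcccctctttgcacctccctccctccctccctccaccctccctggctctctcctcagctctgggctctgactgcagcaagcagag
Col25a1: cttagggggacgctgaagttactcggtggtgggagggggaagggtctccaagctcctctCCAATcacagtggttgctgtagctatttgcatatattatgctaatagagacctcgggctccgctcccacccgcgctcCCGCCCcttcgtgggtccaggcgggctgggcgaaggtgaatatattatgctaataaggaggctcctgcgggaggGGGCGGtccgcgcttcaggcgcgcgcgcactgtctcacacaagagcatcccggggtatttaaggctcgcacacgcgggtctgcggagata

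The Col4a1 and Col4a2 windows hold 74.0% and 73.7% G and C, against a median of 52.7% over all windows, while those of Col4a5 and Col4a6 hold 52.7% and 48.3%. GGGCGG was found in all 4 of these windows, and in the 38 collagen windows it was present in 60.5%, against 35.7% of all 32851 windows. CCAAT was present in 34.2% of the collagen windows and 37.4% of all windows, and TATAAA in 13.2% and 13.6%. The Col6a1 window held none of the 3 motifs. These counts describe letters in a window and say nothing of binding.

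Collagen genes took a larger share of the counts in all 4 Gpr125+ libraries than in both Gpr125-negative libraries. The share was 0.119% and 0.0637% (Gpr125-negative), 0.236% and 0.472% (TEB-distal) and 0.216% and 0.132% (nipple-proximal), with means of 0.0916% ± 0.0394 (SD, n = 2), 0.354% ± 0.167 and 0.174% ± 0.0597. The 95% Wilson intervals were at most 0.00497 percentage points wide and cover counting error only, since amplified reads without molecular identifiers are not independent molecules. The lower TEB-distal library was 0.236%, close to the higher nipple-proximal library at 0.216%. An exact permutation test of 2 libraries against 2 cannot give a p-value below 0.333. Type IV genes alone held 40.4% and 48.9% of the collagen counts (Gpr125-negative), 58.7% and 66.1% (TEB-distal) and 51.2% and 56.4% (nipple-proximal). Col4a1 by itself made up between 21.7% and 40.2% of them. Without Col4a1, the share of all counts was 0.0708% ± 0.0296 (SD, n = 2), 0.216% ± 0.0944 and 0.128% ± 0.0444 in the same order of groups. Summed over the list, the fibroblast markers were also highest in the second TEB-distal library, at 1114 CPM, of which Gsn made up 834. Fbln2, Dpt and Pi16 were highest there too, while Dcn, Lum, Mfap5, Cd34, Pdgfra and Dpp4 were highest in other libraries. Whether CD140a, listed in the study's panel, was used in this sort is not stated in the series text. The part of fibroblasts in the collagen share was not tested.

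**Figure D1:**
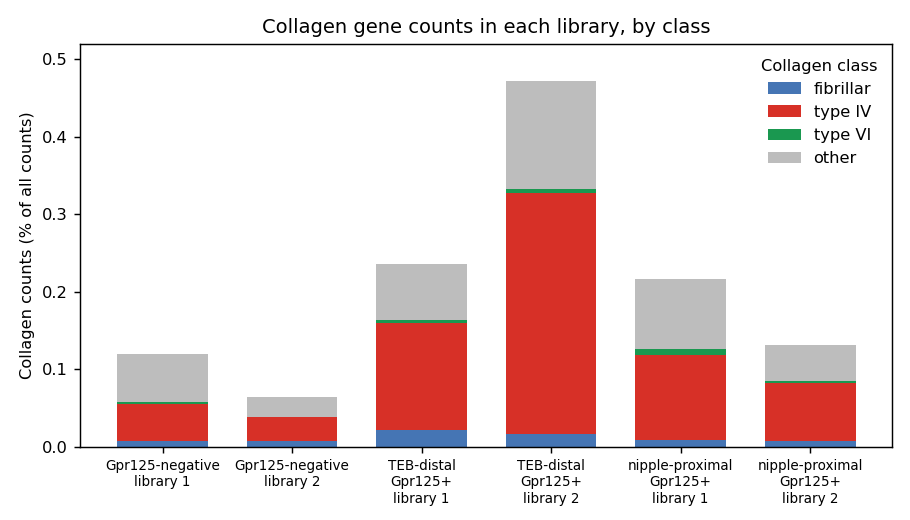
Share of each library's counts in the 44 collagen genes (y axis, percent), by library and split by class; each bar is 1 library and starts at 0. The bars run from 0.0637% in the second Gpr125-negative library to 0.472% in the second TEB-distal library, and the type IV part is the largest in every library but the first Gpr125-negative one.

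Of the 44 genes, 40 had at least 1 count somewhere, 20 had at least 10 counts in all 6 libraries, and 8 never reached 10. Col19a1, Col22a1, Col26a1 and Col6a6 had 0 counts in every library, where 3 counts correspond to between 0.0645 and 0.147 CPM. The expression filter passed 33 genes and left out 11: these 4, Col13a1, Col24a1, Col28a1, Col2a1, Col4a3, Col6a4 and Col6a5. The filter can pass a gene on the strength of a single group, so that counts over the 33 are a description. A library of the TEB-distal group held the highest level of 26 of the 40 detected genes, 10 in the first and 16 in the second, against 2 and 4 (Gpr125-negative) and 5 and 3 (nipple-proximal). The 40 include genes with very few counts, such as Col24a1 with 1 and 3. The same count was not made over all genes, so it cannot be read as particular to collagens. Levels per kilobase of exon (CPM per kb), which allow genes to be compared, averaged 91 for Col4a1, 59.8 for Col4a2, 33.1 for Col17a1, 28.1 for Col9a2, 15 for Col18a1, 13.2 for Col9a3 and 8.83 for Col7a1 over the 6 libraries. Fibrillar chains were far lower, at 4.07 for Col5a1, 0.68 for Col1a2 and 0.43 for Col1a1. The level of Col1a2 was 1.58 when the longest annotated transcript was taken as its length. Of the 44 genes, 28 overlap another annotated gene, and the counting did not use strand, so that their counts may hold reads of a neighbour.

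**Figure D2:**
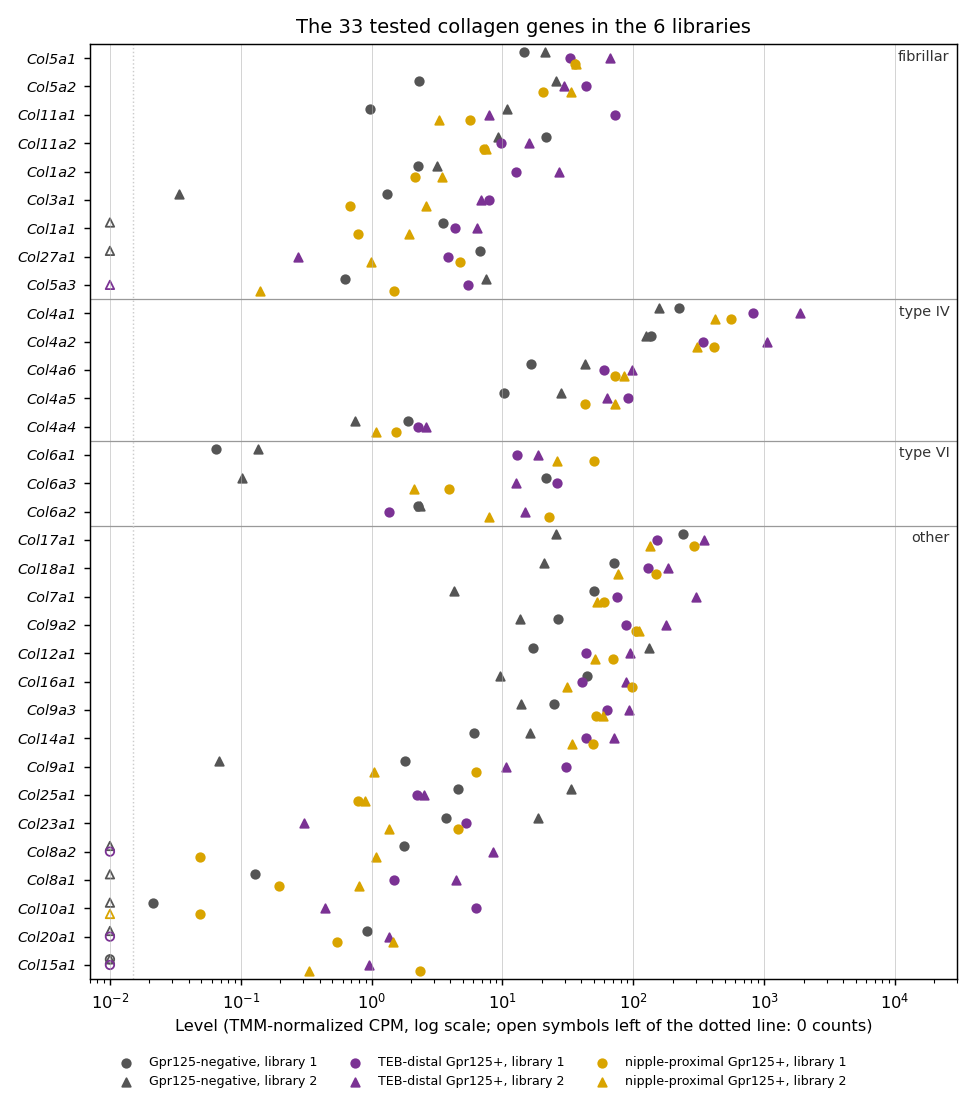
Level of each of the 33 tested collagen genes (x axis, TMM-normalized CPM on a log scale) in each library, grouped by class from top to bottom; colours mark the groups, circles and triangles the first and second library, and open symbols left of the dotted line a count of 0. Col4a1 runs from 156 CPM in a Gpr125-negative library to 1892 CPM in a TEB-distal library, and Col6a1 is at most 0.135 CPM in both Gpr125-negative libraries and at least 12.9 CPM in the 4 others.

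Type IV collagen was the class with the most counts over the 6 libraries, and its main chains were higher in every Gpr125+ library than in both libraries labelled Gpr125-negative. Col4a1 (chromosome 8, 11198423 to 11312826 in GRCm38), which encodes a chain of the most widespread type IV trimer, had 10345 and 4607 (Gpr125-negative), 21167 and 55562 (TEB-distal) and 11453 and 8864 (nipple-proximal) counts. In CPM this was 189 ± 47.0 (SD, n = 2), 1358 ± 754 and 490 ± 103. The 3 groups did not overlap, although the TEB-distal libraries differed from each other by more than the other groups' libraries did. Its partner chain gene Col4a2 (chromosome 8, 11312805 to 11449287) had 6312 and 3676, 8703 and 31016, and 8453 and 6459 counts in the same order. The first TEB-distal library, at 339 CPM, lay between the nipple-proximal libraries, at 415 and 304 CPM, and both Gpr125-negative libraries were lower, at 136 and 125 CPM. Against the Gpr125-negative libraries the log2 fold change of Col4a1 was 2.84 (standard error 0.81) for TEB-distal cells and 1.37 (0.77) for nipple-proximal ones, and that of Col4a2 was 2.42 (0.81) and 1.47 (0.79). The adjusted p-values were 0.803 for both genes in TEB-distal and 1 for both in nipple-proximal cells (edgeR's quasi-likelihood test over 17268 genes). Both genes overlap each other and other annotated genes at this locus.

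Per kilobase of exon, Col4a1 exceeded Col4a2 in all 6 libraries, by a ratio of 1.11 to 2.16 with a median of 1.34. The 2 type IV chains encoded on the X chromosome, Col4a5 (141475385 to 141689234) and Col4a6 (141165403 to 141474076), pair in basement membranes that include those of smooth muscle and myoepithelium. Col4a5 had 477 and 828 (Gpr125-negative), 2329 and 1853 (TEB-distal) and 863 and 1543 (nipple-proximal) counts. Col4a6 had 774 and 1252, 1538 and 2888, and 1483 and 1814. For both genes the 4 Gpr125+ libraries lay above the Gpr125-negative libraries in CPM, while the TEB-distal and nipple-proximal libraries overlapped. Their ratio per kilobase ran from 0.69 to 1.80 and was above 1 in 2 libraries, so that neither chain was the higher throughout. Col4a1 was 5.01 to 27.0 times as high as Col4a5. The log2 fold changes were 2.01 (standard error 0.76) and 1.59 (0.75) for Col4a5 and 1.42 (0.71) and 1.42 (0.71) for Col4a6, in TEB-distal and nipple-proximal against Gpr125-negative cells. The other chains of the kidney filter's trimer were low. Their genes Col4a4 and Col4a3 also lie head to head, 71 bases apart on chromosome 1, but averaged 0.159 and 0.0089 CPM per kb. Col4a3 had 4 counts in 1 TEB-distal and 8 in 1 nipple-proximal library, and Col4a4 had 22 to 88 counts.

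**Figure D3:**
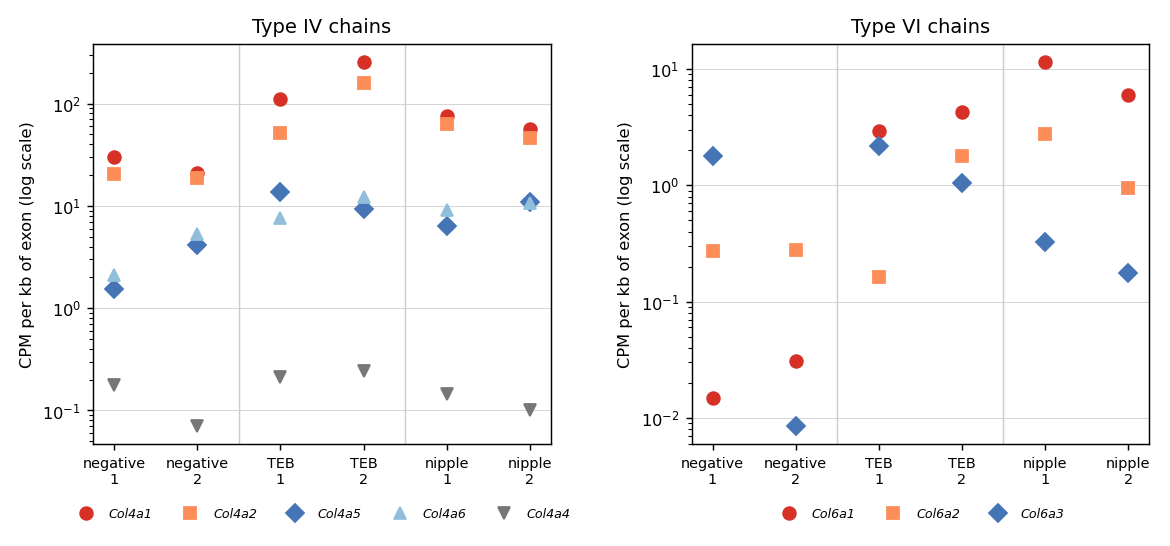
Level per kilobase of exon (y axis, CPM per kb, log scale) of the type IV chain genes on the left and the type VI chain genes on the right, with 1 symbol per gene and library. Col4a1 is above Col4a2 in every library, at a ratio of 1.11 to 2.16, whereas the Col6a1 to Col6a2 ratio runs from 0.0543 to 18.

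Type VI collagen is built from a chain of each of Col6a1, Col6a2 and Col6a3, and the levels of these genes did not run in parallel. Col6a1 (chromosome 10, 76708792 to 76726168) had 3 and 4 (Gpr125-negative), 332 and 552 (TEB-distal) and 1023 and 555 (nipple-proximal) counts. Both nipple-proximal libraries, at 50.2 and 26.1 CPM, were above both TEB-distal libraries, at 12.9 and 18.8 CPM. With the counts of each group summed and scaled, the ratio to the Gpr125-negative group was 174 (95% exact counting interval 84.3 to 435) for TEB-distal and 412 (199 to 1026) for nipple-proximal cells. The log2 fold changes were 7.28 (standard error 1.11) and 8.55 (1.17). The unadjusted p-values of edgeR's quasi-likelihood test were 1.82e-04 and 8.47e-05, and the adjusted ones 0.631 and 1. The call depended on the test: DESeq2 on all 6 libraries gave adjusted p-values of 2.38e-09 and 3.41e-12, and edgeR with every gene of at least 1 count kept gave 5.73e-04 and 9.68e-05.

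Col6a2, next to Col6a1 on chromosome 10 at a distance of 85161 bases, had 105 and 69 (Gpr125-negative), 35 and 438 (TEB-distal) and 465 and 169 (nipple-proximal) counts. The first TEB-distal library was the lowest of all 6, and the other 3 Gpr125+ libraries were above both Gpr125-negative libraries. Its log2 fold changes were 1.82 (standard error 1.38) and 2.74 (1.42), and the first was -0.76 without the second TEB-distal library. Col6a3 (chromosome 1, 90765923 to 90843971), the gene of the longest chain of the trimer, had 1003 and 3 (Gpr125-negative), 675 and 370 (TEB-distal) and 79 and 45 (nipple-proximal) counts. The Gpr125-negative libraries were far apart, at 21.6 and 0.102 CPM, and both TEB-distal libraries were above both nipple-proximal ones. The log2 fold change of TEB-distal against Gpr125-negative cells, 0.84 (standard error 1.74), was 7.38 without the first and -0.16 without the second Gpr125-negative library. The Col6a1 to Col6a2 ratio per kilobase was 0.0543 and 0.110 in the Gpr125-negative and between 2.40 and 18 in the Gpr125+ libraries. The related Col6a4 had 8 counts in 1 nipple-proximal library and Col6a5 had 86 in 1 TEB-distal library, with 0 in all others.

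Fibrillar collagens were low, and several were highest in the TEB-distal libraries. Col1a2 (chromosome 6, 4504814 to 4541544), a chain of type I collagen, had 105 and 93 (Gpr125-negative), 326 and 796 (TEB-distal) and 44 and 73 (nipple-proximal) counts. Both TEB-distal libraries were above the 4 others, whose levels of 2.16 to 3.44 CPM overlapped. The log2 fold change of TEB-distal cells was 2.88 (standard error 1.15) against Gpr125-negative and 2.83 (1.15) against nipple-proximal cells, with adjusted p-values of 0.803 and 1 from edgeR's quasi-likelihood test. Col1a1, its partner, had 162 and 0 counts, 112 and 186, and 16 and 41 in the same order, so that 1 Gpr125-negative library was at 0 and the other between the groups. Col3a1, the fibrillar collagen of loose connective tissue, had 61 and 1, 202 and 203, and 14 and 55 counts. Its 2 TEB-distal libraries, at 7.88 and 6.91 CPM, were above the 4 others.

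Type V and type XI chains set the diameter of fibrils. Col5a1 (chromosome 2, 27886425 to 28039514) had 678 and 628 (Gpr125-negative), 840 and 1937 (TEB-distal) and 734 and 780 (nipple-proximal) counts. All 4 Gpr125+ libraries were above the Gpr125-negative ones in CPM, and the log2 fold changes were 1.46 (standard error 0.71) and 1.02 (0.70). Col5a2 had 107 and 753, 1109 and 862, and 419 and 705 counts, with a wide gap between the Gpr125-negative libraries. Col5a3 had 29 and 220, 139 and 0, and 30 and 3 counts, and its groups overlapped throughout. Col11a1 had 45 and 319, 1862 and 231, and 115 and 70 counts, so that its high TEB-distal mean of 40.2 ± 45.8 CPM (SD, n = 2) came mostly from the first library. Col11a2 was the fibrillar gene that was lower in nipple-proximal cells without overlap, with 1005 and 274, 248 and 471, and 147 and 159 counts and a log2 fold change of -1.07 (standard error 0.96). Col27a1, a cartilage-type fibrillar collagen, had 312 and 0, 99 and 8, and 96 and 21 counts. Col2a1, the main collagen of cartilage, had 211 counts in the first TEB-distal library and at most 1 in every other, and Col24a1 was detected in the TEB-distal libraries alone, with 1 and 3 counts.

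Among the other collagens, the fibril-associated type IX chain genes Col9a2 and Col9a3 had higher levels in all 4 Gpr125+ libraries than in both Gpr125-negative ones. Col9a2 (chromosome 4, 121039385 to 121055322) had 1225 and 401 (Gpr125-negative), 2274 and 5262 (TEB-distal) and 2126 and 2337 (nipple-proximal) counts. Its level was 20 ± 9.03 CPM (SD, n = 2), 134 ± 64 and 107 ± 3.97, and both Gpr125+ groups were clear of the Gpr125-negative libraries. The log2 fold changes were 2.74 (standard error 0.73) and 2.42 (0.72), and they stayed between 2.14 and 3.18 and between 2.03 and 2.84 with any 1 library left out. Their adjusted p-values were 0.803 and 1 by edgeR's quasi-likelihood test. Col9a3 had 1144 and 406, 1625 and 2732, and 1053 and 1250 counts, with log2 fold changes of 2.03 (standard error 0.67) and 1.53 (0.66). Col9a1 had 83 and 2, 788 and 312, and 127 and 22 counts, and its level overlapped between nipple-proximal and Gpr125-negative cells. Col14a1 had 284 and 477, 1119 and 2099, and 997 and 722 counts, above the Gpr125-negative level in all 4 Gpr125+ libraries. Col9a1, Col9a3, Col14a1 and Col20a1 were named after their values were seen. Col12a1, with 793 and 3875, 1119 and 2779, and 1427 and 1076 counts, and Col16a1, with 2066 and 283, 1040 and 2594, and 1979 and 666, overlapped between all groups. Col20a1 had 43 and 0, 0 and 40, and 11 and 31 counts and overlapped as well, and Col28a1 had 3 counts in 1 nipple-proximal library.

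The membrane-spanning collagens had differences of both signs. Col17a1 (chromosome 19, 47646344 to 47692094), the hemidesmosome collagen that ties basal cells to the basement membrane, had 11178 and 759 (Gpr125-negative), 3908 and 10236 (TEB-distal) and 5925 and 2849 (nipple-proximal) counts. The first Gpr125-negative library, at 241 CPM, was within the range of the Gpr125+ libraries, 134 to 348 CPM, and the second was at 25.7 CPM. Without the second, the log2 fold change in nipple-proximal cells was -0.17 in place of 0.68. Col25a1 (chromosome 3, 130131501 to 130599877), a membrane collagen first described in brain, was the member that was lower in both Gpr125+ groups without overlap. It had 212 and 980 (Gpr125-negative), 57 and 74 (TEB-distal) and 16 and 19 (nipple-proximal) counts, and the log2 fold changes were -2.99 (standard error 1.36) and -4.48 (1.47). The adjusted p-values from edgeR's quasi-likelihood test were 0.843 and 1, and DESeq2 on all 6 libraries called the second, with an adjusted p of 0.00975. Without the second Gpr125-negative library the log2 fold changes were -0.95 and -2.43. Col25a1 overlaps 5 other annotated genes. Col23a1 had 172 and 549, 134 and 9, and 93 and 29 counts, and its groups overlapped. The membrane collagen Col13a1 had 4 counts in 1 Gpr125-negative and 16 in 1 TEB-distal library.

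Col7a1 (chromosome 9, 108953586 to 108984875), which forms the anchoring fibrils below the epithelial basement membrane, had 2337 and 125 (Gpr125-negative), 1935 and 8883 (TEB-distal) and 1213 and 1121 (nipple-proximal) counts. Its 3 groups were ordered without overlap in CPM, at 50.3 and 4.23, 75.4 and 302, and 59.6 and 52.8, but the first Gpr125-negative library was close to the nearest nipple-proximal library. The log2 fold changes were 2.79 (standard error 1.20) and 1.04 (1.14), and 5.37 and 3.59 without that library. Col18a1 (chromosome 10, 77052178 to 77166548), a basement membrane collagen whose end fragment is endostatin, had 3308 and 611, 3309 and 5387, and 3057 and 1629 counts. All 4 Gpr125+ libraries were above both Gpr125-negative libraries in CPM, with log2 fold changes of 1.77 (standard error 0.81) and 1.30 (0.80). Its relative Col15a1 had 0 and 0, 0 and 28, and 48 and 7 counts. The nipple-proximal level was at least 33.5-fold higher than in the Gpr125-negative libraries when the latter were set at 3 counts over the group. The short-chain network collagens were sparse. Col8a1 had 6 and 0, 38 and 130, and 4 and 17 counts, and Col8a2 had 82 and 0, 0 and 247, and 1 and 23. Col10a1, known from growth plate cartilage, had 1 and 0, 160 and 13, and 1 and 0 counts, a ratio of 239 between the summed TEB-distal and Gpr125-negative groups with a 95% exact counting interval of 42.3 to 9492. Most of the TEB-distal counts of Col10a1 came from the first library, which also held nearly all those of Col2a1.

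TEB-distal Gpr125+ cells were compared with Gpr125-negative cells to ask which genes differ between them. The region of the Gpr125-negative cells is not given, so that FDG status and site cannot be told apart here. Collagen genes mostly had higher levels in TEB-distal cells, at a median log2 fold change of 1.82 over the 33 tested, against 0.03 over all 17268 genes tested. The value was above 0 for 27 of the 33, against 51.1% of all genes. Genes were called at an adjusted p under 0.1 and at least a 2-fold change. By edgeR's quasi-likelihood test 0 collagen genes passed, as did 0% of all genes, and 10 had an unadjusted p under 0.05 and a higher level, against 3.80% of all genes (0 were lower at that p, against 2.25%). These 10 were Col4a1, Col4a2, Col4a5, Col6a1, Col9a1, Col9a2, Col9a3, Col14a1, Col10a1 and Col1a2. Both TEB-distal libraries were above both Gpr125-negative libraries for 21 of the 44 genes, and for 19 of the 33 tested against 14% of all genes. The reverse held for 1, Col25a1, against 10%. By class the median was 1.46 for the 9 tested fibrillar, 2.01 for the 5 type IV, 1.82 for the 3 type VI and 2.13 for the 16 other genes. The type VI median depended partly on which genes entered. It was 4.51 with DESeq2 on the 4 compared libraries, 7.04 without the first Gpr125-negative library and 2.68 to 4.84 without each of the 5 others. Col6a5, which is not among the 3 tested genes, entered that DESeq2 fit at 8.39 and some of the others at 8.35 to 9.58. In the same DESeq2 fit Col6a1, Col6a2 and Col6a3 were at 7.28, 1.75 and 0.85.

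DESeq2 on all 6 libraries called 8 collagen genes in this comparison, all higher in TEB-distal cells, where it called 3.24% of all genes higher. They were Col6a1, Col4a1, Col9a2, Col1a2, Col9a1, Col8a1, Col10a1 and Col2a1. Fitted to the 4 compared libraries it called 3, Col6a1, Col10a1 and Col2a1, against 2.34% of all genes higher. Without the first Gpr125-negative library, edgeR called 5, against 3.85% of all genes: Col6a1, Col6a3, Col7a1 and Col9a1, which were higher, and Col25a1, which was lower. In that fit the lone Gpr125-negative library was assumed to vary like the other groups, the median of all genes was 0.53, and the median of the collagen genes was 2.90. Without the second nipple-proximal library edgeR called Col6a1, against 0.224% of all genes, and so it did when all genes with at least 1 count were kept, against 0.468%.

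**Figure D4:**
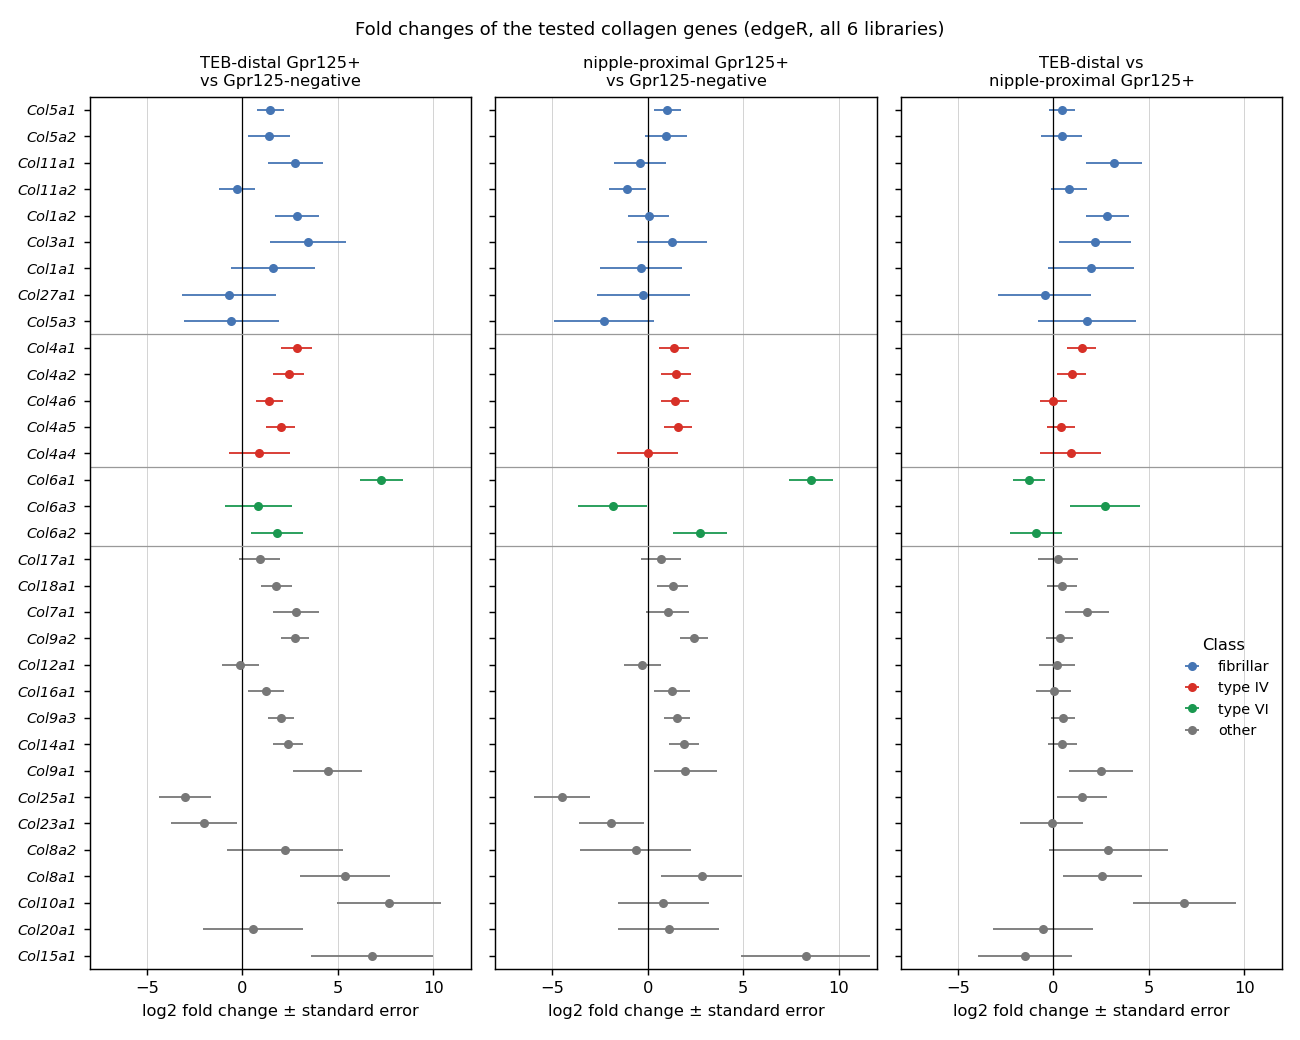
Log2 fold change with its standard error (x axis, edgeR, all 6 libraries) of the 33 tested collagen genes in the 3 comparisons, in blue for fibrillar, red for type IV, green for type VI and grey for other genes. Most points lie right of 0 in the first panel, with a median of 1.82, and nearer to 0 in the third, with a median of 0.50; Col25a1 lies left of 0 in the first panel and the second.

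The same question was asked of nipple-proximal Gpr125+ cells, with the same Gpr125-negative libraries as reference, so that the comparisons are not independent. The median log2 fold change of the 33 tested genes was 1.04, against -0.00 over all genes, and 22 of the 33 were above 0, against 49.6% of all genes. By edgeR's quasi-likelihood test 0 were called, as were 0% of all genes. An unadjusted p under 0.05 was found for 4 that were higher (Col6a1, Col9a2, Col14a1 and Col15a1), against 2.62% of all genes, and for 1 that was lower (Col25a1), against 0.927%. The libraries did not overlap and were higher for 15 of the 44 genes, or 14 of the 33 tested against 19.9% of all genes, and were lower for Col11a2 and Col25a1, against 10.8%. The class medians were -0.24 for fibrillar, 1.42 for type IV, 2.74 for type VI and 1.17 for other genes. That of the fibrillar genes was between -0.26 and 0.35 with each library left out. Without the first nipple-proximal library the type VI median was 0.90 and that of the other genes 0.29, and without the first Gpr125-negative library they were 3.64 and 2.62. The filter was run anew in each such fit. Col6a5, at a log2 fold change of 0 in this comparison, and Col13a1 entered some of them, so that these medians were not over the same genes. DESeq2 called Col6a1 and Col25a1, both on all 6 libraries, where 1.98% of all genes were called, and on the 4 compared libraries, where 2.02% were. So did edgeR without the first Gpr125-negative library, with 1.73% of all genes called, a median of 0.40 over all genes and a median of 2.10 over the collagen genes. Without the second nipple-proximal library it called Col6a1, against 0.0195% of all genes, as it did with all genes with at least 1 count, against 0.198%.

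The third comparison set the 2 Gpr125+ groups against each other. With TEB-distal set over nipple-proximal cells, the median log2 fold change was 0.50 over the 33 tested collagen genes and 0.06 over all genes, and 27 of the 33 were above 0, against 52.6% of all genes. By edgeR's quasi-likelihood test 0 were called, as were 0% of all genes, with 2 at an unadjusted p under 0.05 and a higher level (Col1a2 and Col10a1) against 0.747% of all genes, and 0 lower against 1.46%. Both TEB-distal libraries were above both nipple-proximal libraries for 15 of the 44 genes, or 14 of the 33 tested against 15.2% of all genes. They were below them for Col6a1, against 18.3%. Fibrillar genes had a median of 1.74, with 8 of the 9 tested above 0, type IV genes 0.89, type VI genes -0.92 and other genes 0.47. The type VI median rested on 3 genes. With libraries left out one at a time it was between 0.0097 and 1.61. Col6a5, with 86 counts in 1 TEB-distal library, entered some of these fits at 8.35 to 9.58, so that the set of genes changed. Col6a1 itself stayed below 0, at -1.68 to -0.73. DESeq2 on all 6 libraries called 0 collagen genes, against 0.743% of all genes, and on the 4 compared libraries it called 5 as higher in TEB-distal cells, Col1a2, Col6a3, Col10a1, Col11a1 and Col2a1, against 1.22% of all genes called higher. Col4a1 had a log2 fold change of 1.47 (standard error 0.77) and an adjusted p of 1 by the same edgeR test.

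Genes that modify, fold, cut, cross-link or bind collagens were read from a list of 45, of which all were found and 44 tested. Their median log2 fold change was 0.35 for TEB-distal and 0.51 for nipple-proximal over Gpr125-negative cells, and -0.30 between the Gpr125+ groups. By edgeR's quasi-likelihood test 0 were called in any of the 3 comparisons, and 1 was higher and 1 lower at an unadjusted p under 0.05 in the first, 2 were higher in the second and 0 in the third. Those shares over all genes were 3.80% higher and 2.25% lower in the first and 2.62% higher in the second. DESeq2 on all 6 libraries called 2, 1 and 0 of the 44, where it called 5.43%, 1.98% and 0.743% of all genes. Serpinh1, the collagen chaperone HSP47, had 9317 and 12878 (Gpr125-negative), 5939 and 17470 (TEB-distal) and 7116 and 16444 (nipple-proximal) counts, and its groups overlapped in CPM. The prolyl hydroxylase genes P4ha1 and P4ha2, whose enzymes stabilize the helix, had log2 fold changes of -0.11 (standard error 0.90) and 0.94 (0.99) in TEB-distal cells. The lysyl hydroxylase genes Plod1 and Plod2 had 0.84 (standard error 0.71) and -0.34 (1.05). The 15 chain-modifying genes had medians of -0.08 and 0.33, and the 6 genes of folding and export 0.04 and 0.66, in the 2 comparisons with Gpr125-negative cells.

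Genes that act on collagen outside the cell were sparser and more scattered. Lox, which cross-links fibrils, had 5 and 674 (Gpr125-negative), 1 and 6 (TEB-distal) and 60 and 86 (nipple-proximal) counts. The second Gpr125-negative library was the highest by far, and the log2 fold change in TEB-distal cells was -6.50 (standard error 2.52, adjusted p = 0.803 by edgeR's quasi-likelihood test) and between -8.05 and 0.18 with each library left out. DESeq2 on all 6 libraries called it, with an adjusted p of 0.0132. Of the 8 genes of propeptide removal, several were at or near 0 in the Gpr125-negative libraries, and no median is given for them. Adamts3 had 0 and 0, 0 and 78, and 0 and 15 counts, Pcolce2 had 0 and 0, 0 and 62, and 24 and 9, and Tll1 had 2 and 0, 2 and 67, and 66 and 44. Itga1, a collagen-binding integrin chain, had 43 and 66, 578 and 624, and 166 and 267 counts. Its 3 groups did not overlap, the log2 fold changes were 3.79 (standard error 1.08) and 2.71 (1.03), and DESeq2 on all 6 libraries called the first, with an adjusted p of 0.00255. The collagen receptor Ddr1 had log2 fold changes of 0.68 (standard error 0.85) and 0.41 (0.85), and Ddr2 of -1.46 (1.59) and -0.32 (1.56). Itga1 was named after its values were seen. Loxl4 had 162 and 0, 0 and 71, and 9 and 0 counts, with overlap between all groups.

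Markers of other cell types that make collagen were read beside these values. The endothelial list was highest in sum in the Gpr125-negative libraries, although the sort removed CD31-positive cells: Emcn had 11970 and 13276 counts there, 5 and 3 (TEB-distal) and 365 and 99 (nipple-proximal). Pecam1, Cdh5, Tie1, Tek, Cldn5 and Esam were also higher in both Gpr125-negative libraries than in every Gpr125+ library. Kdr and Eng overlapped. In the same order Kdr was at 0.323 and 13.8, 4.25 and 0.204, and 1.08 and 1.04 CPM. Eng was at 18.6 and 1.29, 2.14 and 1.33, and 14.1 and 3.06 CPM. Col4a1, Col4a2, Col4a5 and Col4a6 were lowest in the Gpr125-negative libraries. The 8 luminal markers summed to 2031 to 3242 CPM, the 7 leukocyte markers to 18.7 to 57.3, the 5 adipocyte markers to 0.0215 to 4.44 and the 3 erythroid markers to 0.0491 to 1.32. The 5 Schwann cell markers summed to 139 and 257 CPM (Gpr125-negative), 34.6 and 73.9 (TEB-distal) and 129 and 101 (nipple-proximal). The 7 pericyte markers summed to 1.67 to 24.4 CPM. Rgs5, a defining one, was at 0 and 18.5 CPM (Gpr125-negative), 0 and 0 (TEB-distal) and 0.54 and 15.7 (nipple-proximal). Pdgfrb and Notch3 had counts in all 6 libraries, while Kcnj8, Abcc9 and Higd1b had 0 in most. The fibroblast markers Dcn and Lum had 805 and 3605, 1140 and 3258, and 1315 and 889 counts for Dcn, and 34 and 576, 347 and 259, and 4 and 41 for Lum, and for both genes the Gpr125+ groups overlapped the Gpr125-negative libraries in CPM. The summed level of the basal markers was highest in the second TEB-distal library. Krt14, Krt17, Acta2, Myh11, Mylk and Cnn1 were highest there. Krt5 and Oxtr were highest in the first nipple-proximal library, and Trp63 was lowest in the second TEB-distal library, at 6.47 CPM. The part of these cell types in the collagen values was not tested.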

How the data were processed

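RNA from sorted mammary cells was amplified with SMART-Seq HT, without molecular identifiers. The authors aligned reads to mm10 with STAR (version 2.7.3 per the submitters' processing notes) and deposited HTSeq counts per gene, unstranded and without normalization. From these counts, 17268 genes that passed filterByExpr by group were fitted in 1 model of all 6 libraries with edgeR 4.0.16 in R 4.3.3 (TMM scaling, robust quasi-likelihood test), and genes were called at a Benjamini-Hochberg adjusted p under 0.1 and at least a 2-fold change, the study's thresholds. Levels are TMM CPM, divided by exon length (GENCODE M21, GRCm38) where genes are compared. DESeq2 1.42.0, other filters and scalings, a replicate block and leaving out each library were alternatives. The study's own test was an earlier version of DESeq2. At these thresholds, DESeq2 1.42.0 on the 4 compared libraries called 667 genes for TEB-distal and 317 for nipple-proximal against Gpr125-negative cells. The fitting code was tested on simulated data. Per-library values were given for up to 6 genes per class with the highest mean of at least 1 CPM, the 3 largest rises and falls in each comparison, chain pairs and any gene called. The members and lists were chosen with earlier results of these data known.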

Additional observations from a re-analysis of the deposited data

How the results depend on the processing

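The median log2 fold change of the collagen genes kept its direction under every alternative run, at 1.42 to 2.90 for TEB-distal and 0.54 to 2.10 for nipple-proximal over Gpr125-negative cells, and 0.50 to 1.11 between the Gpr125+ groups. The number of collagen genes called did not. For TEB-distal against Gpr125-negative cells it was 0 by edgeR's quasi-likelihood test, 8 with DESeq2 on all 6 libraries, 3 with DESeq2 on the 4 compared libraries, 1 with all genes with at least 1 count and 0 to 5 with each library left out. For nipple-proximal against Gpr125-negative cells it was 0, 2, 2, 1 and 0 to 2 in the same order, and between the Gpr125+ groups DESeq2 on the 4 compared libraries called 5. Of the synthesis and processing genes, DESeq2 on all 6 libraries called 2 (TEB-distal) and 1 (nipple-proximal) against Gpr125-negative cells. The shares of all genes called there were 5.43% and 1.98%. Fitted to the 4 compared libraries, DESeq2 again called 2 and 1, where it called 667 of 16659 and 317 of 15705 genes tested. Between the Gpr125+ groups the 4-library fit called 1, against 360 of 15702 genes tested. The cause was not tested. The type VI median for TEB-distal against Gpr125-negative cells was 4.51 with DESeq2 on the 4 compared libraries and 2.68 to 7.04 with each library left out. The filter was run anew in each fit. Genes untested in the main fit, such as Col6a5 and Col13a1, entered some alternatives, so that medians were not always over the same genes. With each library left out in turn, these log2 values changed sign for TEB-distal against Gpr125-negative cells: Col11a2 -0.76 to 0.35, Col12a1 -1.04 to 2.01, Col6a3 -0.16 to 7.38, Col6a2 -0.76 to 2.68, Col20a1 -6.75 to 7.12, Col27a1 -3.57 to 8.65, Col5a3 -9.96 to 2.10, Col8a2 -7.67 to 9.73. With each library left out in turn, these log2 values changed sign for nipple-proximal against Gpr125-negative cells: the median of the fibrillar genes -0.26 to 0.35, Col5a2 -0.064 to 3.55, Col11a1 -1.40 to 2.21, Col1a2 -0.31 to 0.35, Col17a1 -0.17 to 2.92, Col12a1 -1.25 to 1.83, Col4a4 -0.53 to 0.67, Col6a3 -2.84 to 4.69, Col10a1 -1.95 to 2.54, Col27a1 -1.76 to 9.15, Col5a3 -4.79 to 0.38, Col8a2 -4.05 to 6.80, Col1a1 -1.35 to 8.06. With each library left out in turn, these log2 values changed sign for TEB-distal against nipple-proximal cells: the median of the type VI genes 0.0097 to 1.61 (with Col6a5 added in some fits), Col5a1 -0.17 to 0.92, Col17a1 -0.50 to 0.89, Col9a2 -0.29 to 0.81, Col12a1 -0.49 to 0.71, Col16a1 -0.68 to 1.03, Col4a2 -0.10 to 1.62, Col4a6 -0.42 to 0.38, Col6a2 -3.51 to 0.023, Col15a1 -8.28 to 0.52, Col20a1 -7.85 to 0.52, Col23a1 -3.20 to 1.01, Col27a1 -3.32 to 1.06, Col5a3 -7.54 to 4.22, Col8a2 -7.04 to 6.28. Col1a2 in nipple-proximal against Gpr125-negative cells was -0.13 with DESeq2 on all 6 libraries, -0.12 with DESeq2 on the 4 compared, -0.049 with edgeR on the 4 compared, -0.13 with DESeq2 size factors and -0.14 with library totals alone. Between the Gpr125+ groups, Col23a1 was 0.033 with DESeq2 on all 6 libraries, 0.027 with its size factors and 0.0050 with library totals, and Col16a1 was -0.016 and Col4a6 -0.013 with all genes with at least 1 count. Col12a1 was 0.032 with library totals in TEB-distal against Gpr125-negative cells. The median of all genes moved to -0.17 with DESeq2 size factors and -0.23 with library totals in nipple-proximal against Gpr125-negative cells, and to 0.19 and 0.20 between the Gpr125+ groups.

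The labels do not say whether libraries with the same replicate number shared anything else. Their deviations from the group means correlated at -0.035 (TEB-distal with Gpr125-negative), 0.194 (nipple-proximal with Gpr125-negative) and -0.0049 (between the Gpr125+ groups). With the replicate number as a block, edgeR called 0 collagen genes, and their medians were 2.04, 1.33 and 0.66. Under the block, TEB-distal against Gpr125-negative values were 0.19 for Col12a1, 0.45 for Col27a1 and -1.66 for Col8a2. The nipple-proximal against Gpr125-negative values were 0.13 for the fibrillar median, 0.31 for Col12a1, 0.055 for Col4a4, 1.85 for Col27a1 and 0.13 for Col1a1. Between the Gpr125+ groups they were -0.12 for Col12a1 and -0.063 for Col4a6. The common biological coefficient of variation was 0.967 with 2 libraries per group, which limits the precision at all count levels.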
